A study of Mus musculus with 8 samples.

Results

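This section follows the retinol dehydrogenase gene Rdh10 and the retinoic acid pathway around it in thymocytes of a diabetes-prone and a control mouse strain. The 9 genes are the retinol dehydrogenases Rdh10 and Rdh11, the retinal dehydrogenase Aldh1a2, the retinoic acid hydroxylase Cyp26b1, the carrier Crabp2, and the nuclear receptors Rara, Rarb, Rarg and Rxra, out of 53465 genes in each deposited table. Rdh10 was chosen by its higher counts in NOD in these same libraries, so its strain difference is given as a description with no test. The other 8 were listed for their place in the pathway.

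RNA came from CD4+ CD8+ (double-positive) thymocytes sorted by flow cytometry from C57BL/6J mice and from NOD/ShiLtJ (NOD) mice. NOD mice are inbred and prone to autoimmune diabetes without any trigger, and no treatment was named for either strain. The labels give neither the age nor the sex of the mice, nor whether thymi were pooled. Each strain had 4 libraries, numbered by B and T (neither letter is explained), and the T libraries of 1 B number were added together, which gave 2 samples per strain. The labels do not tie a B number to an animal or a culture, so p-values here reflect the spread between samples that may be technical repeats.

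Vitamin A circulates as retinol. Cells oxidise it to retinal with retinol dehydrogenases, of which RDH10 is the main enzyme in the embryo, and then to retinoic acid with retinal dehydrogenases of the ALDH1A family. CRABP2 carries retinoic acid to the nucleus, where RAR and RXR receptors bind DNA as pairs, and CYP26 enzymes remove it. In the thymus retinoic acid is known mainly as a product of stromal cells, and thymocytes respond to it through RARα and RARγ.

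Retinoic acid receptors bind direct repeats of a 6-base half-site, classically spaced by 5 bases, and a gene that carries such an element in its promoter is a usual readout of the hormone. The 13 promoters that RefSeq (GRCm38.p6) gives for 7 of the 9 genes, each from 250 bases before to 50 after a start, were searched for the half-site AGGTCA and its variants (AGTTCA or GGGTCA or GGTTCA), which could be mixed, repeated in the same orientation with a spacer of 1, 2 or 5 bases, on both strands. Rdh10 and Crabp2 have no entry in the table. Among the 9 genes only the Rarb promoter held a match. RefSeq gives 85 promoters for 63 of the other 81 pathway genes. Any on the chromosome of Ttr, Hdac3 and Cdx1 were not searched, so nothing is known here of repeats in them. In the rest, the same search found the 5-base repeat in Cyp26a1, which encodes another retinoic acid hydroxylase. It also found a repeat with a 1-base spacer in Bco1, which encodes the enzyme that splits beta-carotene into retinal. Among all 32851 promoters in the table, 0.0974% held the repeat with a 5-base spacer, 0.268% with 2 and 0.222% with 1. Both windows with the 5-base spacer are shown because both genes are textbook targets of retinoic acid, and their counts are given with the results. Capitals mark the half-sites, and each window is written 5′ to 3′ along the strand of its gene: chr14:16575501-16575541 on the minus strand for Rarb, with the repeat from base 53 to base 37 upstream of the start, and chr19:37697764-37697804 on the plus strand for Cyp26a1, with the repeat from base 32 to base 16 upstream.
Rarb: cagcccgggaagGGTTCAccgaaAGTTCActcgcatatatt
Cyp26a1: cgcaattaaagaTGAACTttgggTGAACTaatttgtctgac

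The sort was checked with 9 markers of double-positive thymocytes. None passed the edgeR test between the strains (3 at an unadjusted p under 0.05, 0 with DESeq2 and 3 with limma). Their summed level was 15815 to 18716 CPM (reads per M reads in genes, scaled by TMM factors) across C57BL/6J and 12168 to 14855 CPM across NOD, without overlap. Rag1 was the largest part of the sum, at 8368 to 10617 CPM in C57BL/6J and 5053 to 6960 CPM in NOD. In 4 of the 9 markers the strains' libraries did not overlap, against 17.0% of all tested genes. C57BL/6J libraries held 8.527 to 15.702 M reads in genes, and NOD libraries 23.533 to 30.371 M. NOD sample 1 stood apart in genes of dividing cells: Mki67, a marker of cycling cells, stood at 376 and 269 CPM in its libraries against 1230 to 2187 CPM in the other 6. Of 17291 genes that passed the filter on low counts, 3.68% were called between the strains at an adjusted p under 0.05 in edgeR, 1.91% higher and 1.78% lower in NOD. For 17.0% of the tested genes the 4 libraries of 1 strain all lay above the 4 of the other.

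Rdh10 encodes a membrane-bound enzyme that turns retinol into retinal, the rate-limiting step of retinoic acid synthesis in the embryo. The gene (ENSMUSG00000025921) lies on the plus strand of chromosome 1 from 16105774 to 16133734 (GRCm38) and overlaps no other annotated gene. Its level was 4.40 and 7.21 CPM in the libraries of C57BL/6J sample 1 and 5.66 and 6.04 CPM in those of sample 2. In NOD it was 93.3 and 87.2 CPM in the libraries of sample 1 and 62.7 and 67.5 CPM in those of sample 2. All 4 NOD libraries lay far above all 4 C57BL/6J libraries, and within NOD both libraries of sample 1 lay above both of sample 2. The means were 5.68 ± 0.163 and 77.9 ± 18.3 CPM (SD, n = 2 samples per strain, as in every mean below), a 13.7-fold difference. The fitted log2 fold change (NOD over C57BL/6J) was 3.78 ± 0.24 (SE). Leaving out each sample in turn moved it between 3.52 and 3.99, the lowest without NOD sample 1. By size it ranked 161 among the tested genes, 220 of which stood at least 8-fold higher in NOD.

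**Figure D1:**
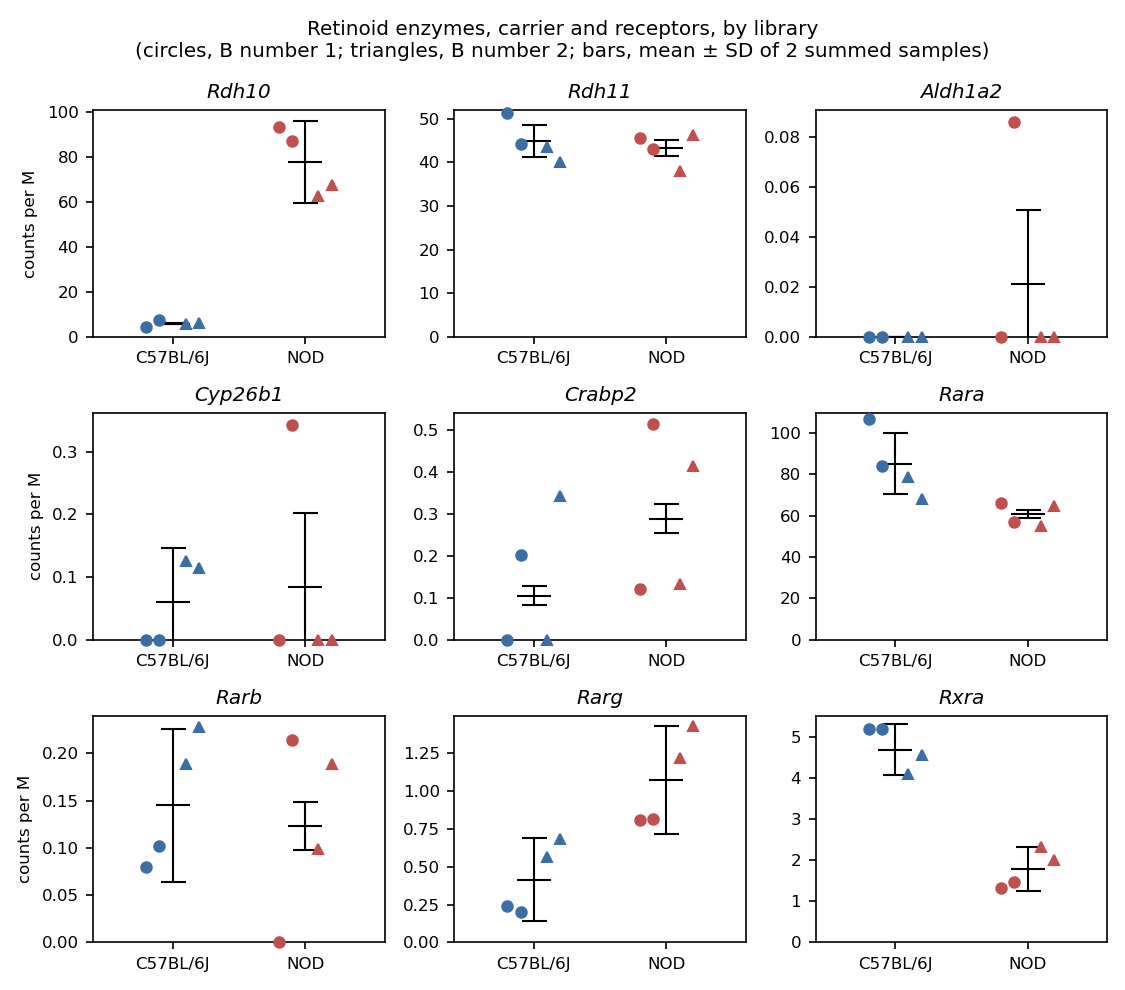
Counts per M of the 9 genes in each library (circles, B number 1; triangles, B number 2), with the mean and SD of the 2 summed samples per strain; each panel has its own linear axis from 0, and error bars that would go below 0 end there. Rdh10 stands at 62.7 to 93.3 in NOD against 4.40 to 7.21 in C57BL/6J, while Aldh1a2 reaches 0.0858 and Cyp26b1 0.343 in 1 NOD library and both are at 0 in the other 3.

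Rdh11, a related dehydrogenase of the endoplasmic reticulum that handles retinal and other lipid aldehydes (ENSMUSG00000066441, chromosome 12, 79174337 to 79192293), showed no such difference. It stood at 51.3, 44.2, 43.6 and 40.1 CPM in the C57BL/6J libraries, given here and below in the order of B and then T number, and at 45.6, 43.1, 38.1 and 46.3 CPM in the NOD libraries. The ranges overlapped almost entirely, and the log2 fold change was -0.05 ± 0.18 (edgeR adjusted p = 0.950). Both genes were compared per length of exon, as reads per kb per M (RPKM). In C57BL/6J libraries Rdh10 stood at 1.06 to 1.73 RPKM and Rdh11 at 11.6 to 14.8 RPKM. In NOD libraries Rdh10 reached 15.1 to 22.4 RPKM and lay above Rdh11, which stood at 11.0 to 13.4 RPKM.

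Dhrs3, which encodes the reductase that turns retinal back into retinol and is known to work together with RDH10, was the most abundant enzyme of retinol and retinal interconversion in both strains. It stood at 45.9 to 52.2 RPKM in C57BL/6J and 59.7 to 73.8 RPKM in NOD, without overlap. The means were 142 ± 6.78 and 194 ± 21.6 CPM (log2 fold change 0.45 ± 0.17), and the adjusted p of 0.250 did not pass. Of the 16 genes of this list (Rdh10 and Rdh11 aside), 8 passed the filter on low counts and none was called in edgeR (1 at an unadjusted p under 0.05, 0 with DESeq2 and 0 with limma). Their fitted log2 fold changes ran from -0.67 to 0.45 with a median of -0.02, against 0.02 over all tested genes. Adh5, a widely expressed alcohol dehydrogenase, stood at 43.3 ± 3.23 and 46.1 ± 5.0 CPM (adjusted p = 0.911), and Rdh14 at 11.0 ± 2.55 and 10.2 ± 1.52 CPM (adjusted p = 0.927). The 8 untested genes held at most 6 reads each over all libraries, and 3 of them held none.

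**Figure D2:**
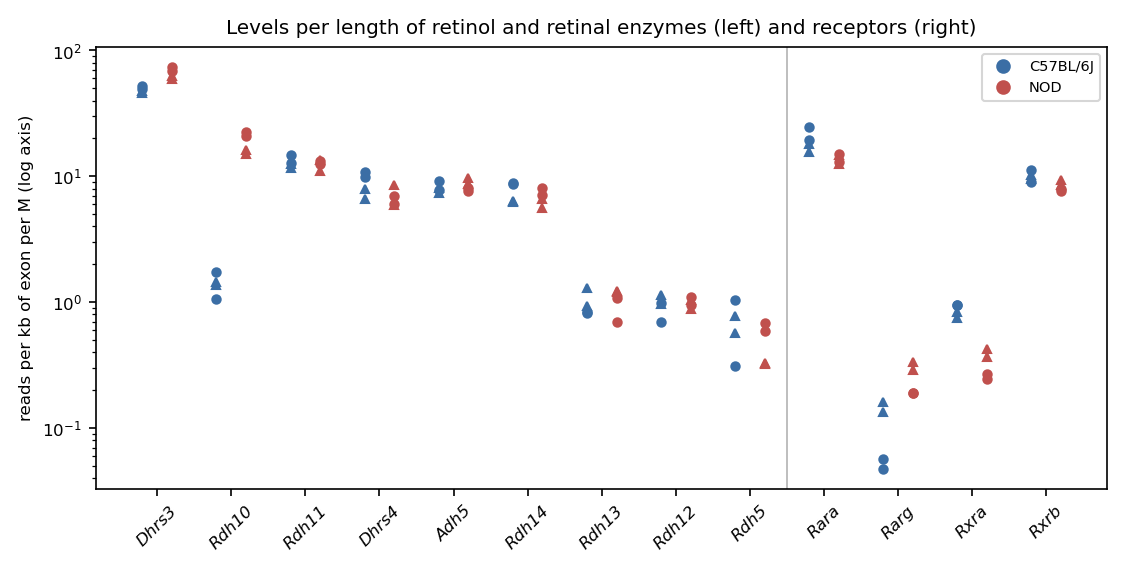
Reads per kb of exon per M (log axis) of enzymes that interconvert retinol and retinal, left of the line, and of RAR and RXR receptors, right of it, in each library (blue, C57BL/6J; red, NOD; circles, B number 1; triangles, B number 2). Rdh10 moves from 1.06 to 1.73 in C57BL/6J to 15.1 to 22.4 in NOD, between Dhrs3 above it and Rdh11 below it.

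RNA for the next step, the oxidation of retinal to retinoic acid, was close to absent from the counts in both strains. Aldh1a2 (ENSMUSG00000013584, chromosome 9, 71215789 to 71296243), the retinal dehydrogenase of most embryonic tissues, had 0 reads in all 4 C57BL/6J libraries and 2 reads in NOD, both in 1 library of sample 1. A count of 0 over the C57BL/6J libraries allows up to 3 reads, or 0.0634 CPM. The other members of the family were as low: Aldh1a1 had 0 reads in C57BL/6J and 4 in NOD, Aldh1a7 had 0 and 1, and Aldh1a3 had none in any library. A strain difference in these genes was not detectable at this depth.

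Genes of clearance and transport were likewise near the floor. Cyp26b1 (ENSMUSG00000063415, chromosome 6, 84571414 to 84593908), which hydroxylates retinoic acid, had 3 reads in C57BL/6J, all in sample 2, and 8 in NOD, all in 1 library of sample 1. The ratio of the strains' scaled counts was 1.21 with an exact 95% interval of 0.290 to 7.07, which covers counting error only, as do all intervals and floors here. Crabp2 (ENSMUSG00000004885, chromosome 3, 87948666 to 87953376) had 0, 2, 0 and 3 reads in the C57BL/6J libraries and 3, 12, 4 and 11 in the NOD libraries. The ratio was 2.72 with an interval of 1.04 to 8.98, and the libraries of the strains overlapped. Cyp26a1, whose promoter repeat is printed above, had 1 read in C57BL/6J and 0 in NOD. Fabp5, which can carry retinoic acid to other nuclear receptors, was the carrier with a measurable level, at 9.11 ± 1.72 and 9.41 ± 1.94 CPM (log2 fold change 0.05 ± 0.30, edgeR adjusted p = 0.972). Of the 15 genes of uptake, storage and carriage, 4 passed the filter and none was called in edgeR (0 at an unadjusted p under 0.05, 0 with DESeq2 and 0 with limma). Lipe, a lipase that also frees retinol from its esters, had the highest mean level per length of them, at 2.90 and 2.65 RPKM. Fabp5 had means of 2.55 and 2.64 RPKM, and its libraries overlapped those of Lipe in both strains. Lipe stood at 17.1 ± 1.04 and 15.6 ± 1.53 CPM (adjusted p = 0.902). All 3 further clearance genes failed the filter.

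Among the receptors, Rara supplied nearly all RAR RNA and Rxrb nearly all RXR RNA. Per length, Rara made up 98.7% to 99.7% of the summed RAR level in C57BL/6J and 97.6% to 98.8% in NOD. Rxrb made up 89.4% to 93.2% of the RXR level in C57BL/6J and 95.3% to 97.0% in NOD, with Rxra at 6.77% to 9.34% and 2.99% to 4.71%. These shares come from sorted cells in bulk, in which fewer expressing cells and less RNA per cell cannot be told apart.

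Rara (ENSMUSG00000037992, chromosome 11, 98927818 to 98974942), which encodes RARα, stood at 107, 84.1, 78.5 and 68.2 CPM in the C57BL/6J libraries and at 66.1, 57, 55.0 and 64.8 CPM in the NOD libraries. The lowest C57BL/6J library was just above the highest NOD library, and C57BL/6J sample 1 held the highest values. The log2 fold change was -0.49 ± 0.18 and did not pass (edgeR adjusted p = 0.254). Rara overlaps the small nuclear RNA gene Gm22061 on the same strand, which held 8 and 12 reads.

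Rarg (ENSMUSG00000001288, chromosome 15, 102234938 to 102257517), which encodes RARγ, was low, with 3, 2, 9 and 6 reads in the C57BL/6J libraries and 20, 19, 37 and 38 in the NOD libraries. These reads correspond to 0.240, 0.203, 0.566 and 0.684 CPM and to 0.809, 0.815, 1.22 and 1.43 CPM. NOD libraries were all above C57BL/6J libraries, by a narrow margin, and the spread between samples of a strain was as wide as the gap. The log2 fold change was 1.35 ± 0.62 with an edgeR adjusted p of 0.403, and it ran from 0.81 without C57BL/6J sample 1 to 2.26 without C57BL/6J sample 2. The gene passed the filter through its NOD counts.

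Rxra (ENSMUSG00000015846, chromosome 2, 27676440 to 27762957), the RXR partner found in most tissues, went the other way. It stood at 5.20, 5.18, 4.09 and 4.56 CPM in the C57BL/6J libraries and at 1.33, 1.46, 2.31 and 2.00 CPM in the NOD libraries. Each NOD library was below each C57BL/6J library, and the NOD libraries of sample 1, high in Rdh10, were the lowest in Rxra. The log2 fold change was -1.39 ± 0.40, with an edgeR adjusted p of 0.120. DESeq2 gave an adjusted p of 0.0474, limma on the 8 libraries 0.0237 and edgeR without the filter 0.0430, so the call depended on the tool and the filter, and the adjusted p ranged from 0.0237 to 0.540 over the alternatives. Rxrb stood at 40.1 ± 0.497 and 33.4 ± 3.11 CPM (log2 fold change -0.26 ± 0.18, adjusted p = 0.670).

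Rarb (ENSMUSG00000017491, chromosome 14, 16430839 to 16819156), the receptor gene whose promoter carries the repeat printed above, had 1, 1, 3 and 2 reads in the C57BL/6J libraries and 0, 5, 3 and 5 in the NOD libraries. The strains' ranges overlapped, and the ratio of scaled counts was 0.842 with an exact 95% interval of 0.312 to 2.49. Rarb overlaps Top2b on the opposite strand, which had 54923 and 102917 reads. The library kit keeps strand, but the strand setting of the counting is not given in the sources used here, so the few Rarb reads could not be told apart from Top2b reads.

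In all, 5 of the 9 genes passed the filter and the other 4 held at most 35 reads each. Of the 4 tested genes besides Rdh10, none was called in edgeR (2 at an unadjusted p under 0.05, 1 with DESeq2 and 1 with limma), against 3.68% of all tested genes. In 3 of the 4, Rara, Rarg and Rxra, the strains' libraries had no overlap, against 17.0% of all tested genes. With so few genes, chosen with results known, nothing was read from either share. The order of levels per length differed between the strains mainly in Rdh10, which was chosen for that. In C57BL/6J the order was Rara, Rdh11, Rdh10, Rxra, and no neighbours among these overlapped. In NOD it was Rdh10, Rara, Rdh11, and the ranges of Rdh10 and Rara met at 15.1 RPKM, and those of Rara and Rdh11 overlapped. Rxra came next in NOD, well below Rdh11, and its range overlapped that of Rarg.

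The wider pathway showed no call. Of 81 further genes in 8 lists (uptake and carriage, interconversion, oxidation, clearance, other receptors, RXR partners, receptor cofactors, and genes known to respond to retinoic acid), 43 were tested and none was called in edgeR, with 2 at an unadjusted p under 0.05 (13.1% of all tested genes), 0 with DESeq2 and 0 with limma. Their fitted log2 fold changes ran from -0.80 to 1.49 with a median of -0.02, and 21 of the 43 were above 0. The highest was that of Cd38, which passed the filter through its NOD counts. The median over all tested genes was 0.02, with 52.3% above 0.

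Genes known to respond to retinoic acid gave values in both directions. Of 20 listed, 8 were tested, 4 had a fold change above 0, and none was called in edgeR (2 at an unadjusted p under 0.05, 0 with DESeq2 and 0 with limma). Ccr9, the receptor for a thymic and gut chemokine, was the most abundant and stood at 1077 to 1134 CPM in the C57BL/6J libraries and 990 to 1441 CPM in the NOD libraries (log2 fold change 0.18 ± 0.20, adjusted p = 0.822). Both libraries of NOD sample 1, at 1441 and 1434 CPM, were above every C57BL/6J library, while those of sample 2, at 1095 and 990 CPM, were not, and without NOD sample 1 the log2 fold change was -0.07. Itga4, a chain of the gut-homing integrin that retinoic acid favours in T cells, stood at 257, 245, 287 and 301 CPM in C57BL/6J and at 162, 172, 237 and 189 CPM in NOD (log2 fold change -0.50 ± 0.19, edgeR adjusted p = 0.259). Cd38, an ectoenzyme that retinoic acid induces in myeloid cells, was near the filter at 0.151 ± 0.0988 and 0.421 ± 0.152 CPM (1.49 ± 0.77, edgeR adjusted p = 0.490). With 7 reads in C57BL/6J and 45 in NOD, it passed the filter through its NOD counts, which favours a fold above 0.

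Receptor cofactors were abundant and close to equal. All 14 were tested and none was called in edgeR (0 at an unadjusted p under 0.05, 0 with DESeq2 and 0 with limma), with fitted log2 fold changes between -0.22 and 0.17. Ncor1, the corepressor that RAR recruits without ligand, stood at 980 ± 139 and 913 ± 29.7 CPM (edgeR adjusted p = 0.896), and Nrip1, a corepressor that retinoic acid induces in many cells, at 537 ± 38.0 and 587 ± 92.2 CPM (adjusted p = 0.867). Among 11 RXR partners, 8 were tested and none was called in edgeR (0 at an unadjusted p under 0.05, 0 with DESeq2 and 0 with limma). The most abundant partner, the oxysterol receptor Nr1h2, stood at 78.5 ± 15.8 and 76.1 ± 12.4 CPM (adjusted p = 0.962). Of 5 other retinoid and retinoid-related receptors, 3 were tested and none was called in edgeR (0 at an unadjusted p under 0.05, 0 with DESeq2 and 0 with limma).

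**Figure D3:**
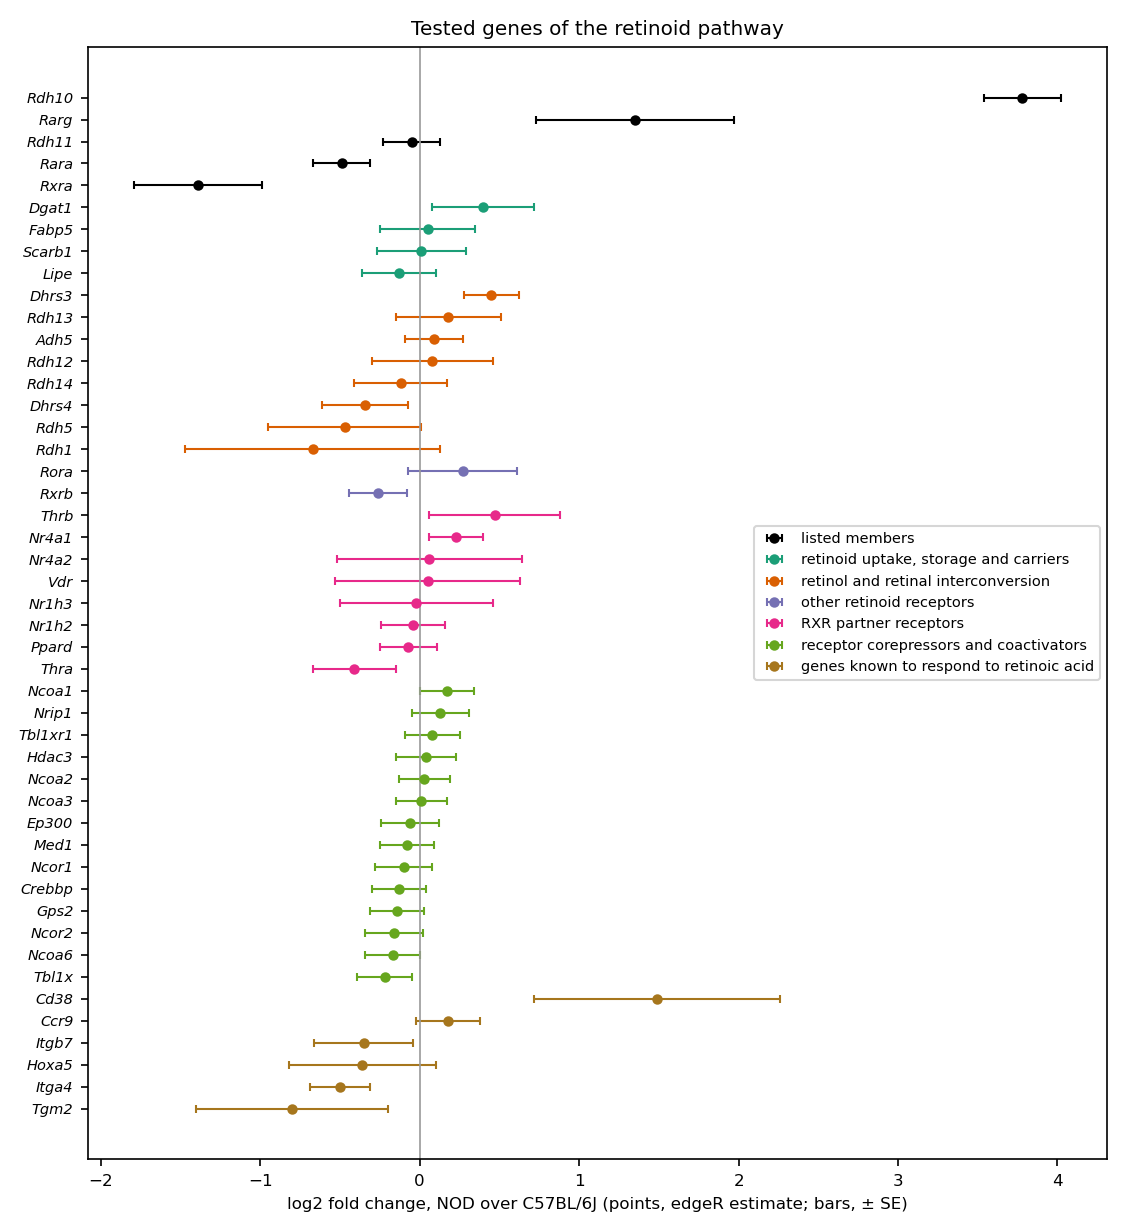
Fitted log2 fold change (NOD over C57BL/6J, edgeR) with SE for the 5 tested members and 42 of the 43 other tested pathway genes, coloured by list; a gene in more than 1 list is drawn once, in the first. Rdh10 lies at 3.78, the other 4 tested members between -1.39 (Rxra) and 1.35 (Rarg), and the genes outside the members between -0.80 and 1.49.

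Genes next to Rdh10 were read for the same comparison. Of 32 genes annotated within 1 Mb on chromosome 1, 10 were tested, and 1 was called, Stau2, higher in NOD. Over all tested genes 3.68% were called, 1.91% of them higher in NOD as a share of all tested. With 10 genes nothing was read from the share. Rpl7, a ribosomal protein gene on the opposite strand whose start lies 1112 bases from that of Rdh10, stood at 705, 617, 462 and 465 CPM in the C57BL/6J libraries and at 575, 732, 496 and 647 CPM in the NOD libraries. The ranges overlapped and the log2 fold change was 0.13 ± 0.21 (edgeR adjusted p = 0.888), so the gene that faces Rdh10 across this short gap showed no difference beyond the spread between samples.

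Stau2 encodes a double-stranded RNA-binding protein that moves RNA in neurons. It lies on the minus strand from 16228674 to 16520112, 94.9 kb beyond the end of Rdh10, so the genes end towards each other. Its level was 1.28, 2.23, 0.944 and 1.14 CPM in the C57BL/6J libraries and 8.09, 8.11, 5.48 and 4.79 CPM in the NOD libraries. All NOD libraries were above all C57BL/6J libraries, and in NOD both libraries of sample 1 were above both of sample 2, as they were for Rdh10. Stau2 rose from 1.34 ± 0.470 to 6.65 ± 2.11 CPM (log2 fold change 2.31 ± 0.44, edgeR adjusted p = 0.0210). That adjusted p was 0.0710 when sample 1 of C57BL/6J was left out and 0.128 when its sample 2 was. Stau2 overlaps the antisense genes Gm28095 and Gm7568, which held 3 and 13 reads in NOD and 1 and 0 in C57BL/6J.

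Further out, the other 8 tested neighbours had adjusted p-values of 0.632 or more in edgeR, and their log2 fold changes lay between -0.55 and 0.37. Ube2w, a ubiquitin-conjugating enzyme gene beyond Stau2, stood at 25.1 ± 7.10 and 31.1 ± 8.26 CPM (adjusted p = 0.760). Terf1, a telomere-binding protein gene on the other side, stood at 55.6 ± 14.2 and 57 ± 0.0517 CPM (adjusted p = 0.971). The 22 untested genes held at most 26 reads each.

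**Figure D4:**
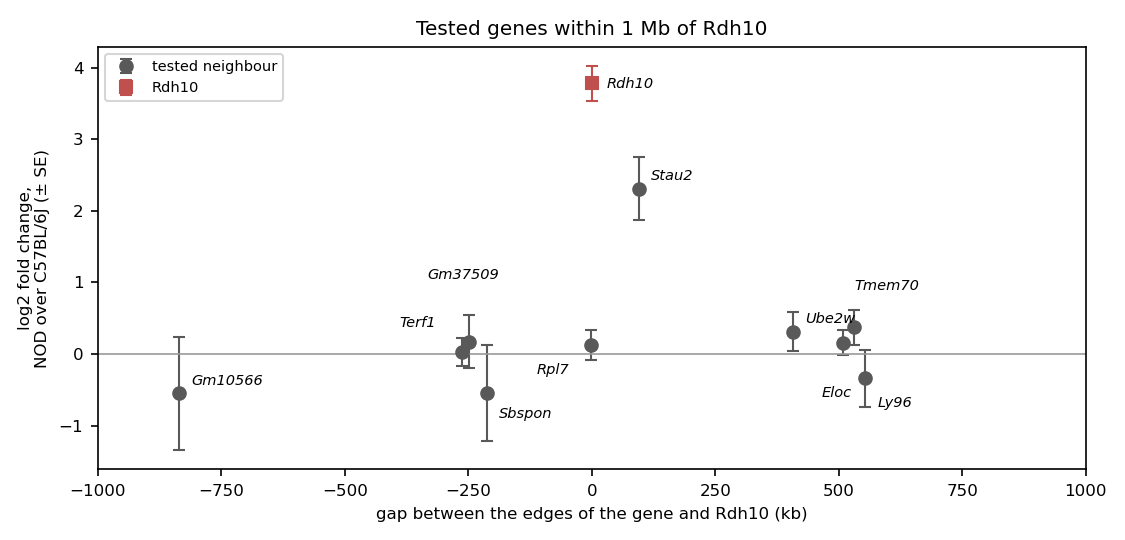
Fitted log2 fold change (NOD over C57BL/6J, with SE) of Rdh10 and of the 10 tested genes within 1 Mb, by the gap between gene edges in kb. Rdh10 at 3.78 and Stau2 at 2.31 stand apart from the other 9 genes, which lie between -0.55 and 0.37.

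The genes with the pattern most like Rdh10 were named by the Pearson correlation of log2(CPM + 1) over the 8 libraries, among 11790 other tested protein-coding genes. Among the first 5 were Foxb1, a forkhead factor gene (r = 0.9989), Adam11 (0.9973), Prag1, a pseudokinase scaffold gene (0.9953), and Gsap (0.9951). None of these 4 lies on chromosome 1. Foxb1 went from 0.640 to 1.22 CPM in C57BL/6J to 18.5 to 25.2 CPM in NOD. The 8 points come from 2 strains that also differ in depth, and 20 genes had an r above 0.99.

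Because retinoic acid in the thymus is known mainly from stroma, markers of other cells were read beside Rdh10. Of 41 such markers in 6 lists (epithelium, fibroblasts, endothelium, dendritic cells and macrophages, B cells, erythroid cells), 25 were tested. Of the 25, 2 were called in edgeR, against 3.68% of all tested genes, and 20 had a fold change above 0, against 52.3%. Their median log2 fold change was 0.72, against 0.02 over all tested genes. Some with few C57BL/6J reads, such as Col1a2 and Krt5, passed the filter through their NOD counts, which favours folds above 0. Nothing was read from these shares or the median. The 8 fibroblast and mesenchyme markers summed to 1.94 to 3.96 CPM in C57BL/6J and 2.32 to 5.36 CPM in NOD. Lum was at 0 in all libraries, and Pdgfra had 0 reads in C57BL/6J and 7 in NOD. Of 2 tested genes in this list 1 was called, the collagen gene Col1a2, with 1 read in C57BL/6J and 134 in NOD (edgeR adjusted p = 0.00959). Its log2 fold change was 5.7 ± 0.92, but 8.77 without sample 1 of C57BL/6J, 4.75 without its sample 2 and 4.44 in limma. With 1 read in C57BL/6J, the size of this fold is uncertain. The other, Pdgfrb, the most abundant of the list, went the other way, from 2.56 to 1.35 CPM (log2 fold change -0.91 ± 0.52, edgeR adjusted p = 0.556). The collagen gene Col1a1 had 13 and 24 reads (ratio of scaled counts 0.837, exact 95% interval 0.409 to 1.79). The 8 epithelial markers summed to 12.8 to 22.9 and 18.3 to 21.6 CPM, with Foxn1, the defining factor, at 2 and 6 reads. In that list Pax1, a factor gene of the thymic rudiment, had 2 reads in C57BL/6J and 28 in NOD (ratio of scaled counts 6.34, exact 95% interval 1.6 to 55.0), and the keratin gene Krt5 had 9 and 67 reads (log2 fold change 1.75 ± 0.64, edgeR adjusted p = 0.250). The 6 endothelial markers summed to 133 to 163 and 122 to 139 CPM, nearly all of it Pecam1, which T cells also express, with Emcn at 0. The 8 dendritic cell and macrophage markers summed to 8.30 to 10.9 CPM in C57BL/6J and 14.4 to 24.1 CPM in NOD. Of 7 tested in that list 1 was called, Csf1r, the receptor of macrophage growth factor, which rose from 0.642 to 3.55 CPM (edgeR adjusted p = 0.0233). All 7 had a fold change above 0, against 52.3% of all tested genes. In edgeR 3 had an unadjusted p under 0.05, against 13.1%, and nothing was read from these shares. Lyz2, the most abundant, went from 3.85 to 9.54 CPM (log2 fold change 1.31 ± 0.37, edgeR adjusted p = 0.109), and the strains' libraries overlapped. DESeq2 called 2 genes of that list and limma 0. The adjusted p of Csf1r was 0.0664 in limma, and in edgeR 0.0717 without sample 1 of C57BL/6J and 0.146 without its sample 2. B cell markers summed to 10.0 to 18.4 and 10.9 to 12.9 CPM, erythroid markers to 1.32 to 6.56 and 1.54 to 13.6 CPM, early double-negative markers to 29.6 to 31.9 and 23.4 to 34.1 CPM, mature single-positive markers to 161 to 172 and 126 to 139 CPM, and genes of dividing cells to 2283 to 3513 and 492 to 3475 CPM. None of these 5 lists, nor the epithelial and endothelial ones, had a called gene in edgeR. At an unadjusted p under 0.05 there were 0, 1, 2, 3 and 0 genes in the 5 lists and 1 each in the epithelial and endothelial ones, and DESeq2 and limma each called 1 mature single-positive gene. Their part, and that of the low dividing-cell genes in NOD sample 1, in the Rdh10 and Stau2 values was not tested.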

How the data were processed

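Each library has 1 table of counts that the authors deposited, as whole reads per Ensembl gene with no normalization; per the submitters' processing notes, STAR 2.5.0a aligned reads to GRCm38 and HTSeq 0.6.1 counted them. Annotation release and strand setting are not given in the sources used here. Of the reads listed, 39.98% to 59.08% fell outside genes and 0.69% to 2.38% were ambiguous; neither class was used. Symbols, exon lengths and coordinates came from GENCODE M21 (GRCm38; 53360 of 53465 identifiers matched). Libraries that shared a B number differed beyond sampling noise (chi-square per degree of freedom 2.961 to 61.185) and were summed. Summed counts were filtered with filterByExpr, scaled by TMM and tested with edgeR 4.0.16 (quasi-likelihood, robust, strain only, 2 residual degrees of freedom; R 4.3.3), two-sided, with Benjamini-Hochberg adjustment over all tested genes at 0.05, and checked on simulated data. CPM used total reads in genes times the TMM factors. SE came from the F statistic. A count of 0 was given a floor of 3 reads per strain. DESeq2 1.42.0 and limma 3.58.1 (voom, 8 libraries, library correlation 0.398) were alternatives. The members and lists were chosen with earlier results of these data known. Named were the 9 members, called pathway genes and the most abundant of each list, called neighbours within 1 Mb and the nearest on each side, and the 5 genes most like Rdh10; other pathway and marker genes, Ube2w and Terf1 were added after their values were seen. Of the genes this rule names, 2 are not reported here.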

Additional observations from a re-analysis of the deposited data

Results flagged for a closer look

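Within the 4 NOD libraries, 1 library stood apart for a pair of near-silent genes, by the gap to the next library as a share of the whole range. Library 2 of NOD sample 1 held both Aldh1a2 reads of the strain, at 0.0858 CPM against 0 in the other 3, and all 8 Cyp26b1 reads, at 0.343 CPM against 0 in the other 3. The check covered 21 groups of 4 libraries, and the libraries of 1 sample are not independent. Chance picks out about 1 in 20 groups of continuous values, but where 1 library alone holds reads the gap equals the whole range by construction, so nothing is read from either value.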

How the results depend on the processing

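The Rdh10 log2 fold change stayed between 3.52 and 3.99 in the 9 alternatives. The count of genes called between the strains was 637, 1188 with no filter on low counts, 513 with the B number as a replicate block, 651 with RLE scaling, 855 with DESeq2, 815 with limma, and 256 to 1389 when 1 sample was left out. The block changed no call of the members, the other pathway genes, the neighbours, Col1a2 or Csf1r; the labels do not say that B numbers pair samples, and same-numbered samples deviated with a correlation of -0.123. Among the tested members other than Rdh10, 1 gene, Rxra, was called with no filter, with DESeq2 and with limma, against 0 in edgeR. The count near Rdh10 was 0 to 1 when 1 sample was left out, lost without either C57BL/6J sample; with 1 sample in a strain, that sample is assumed to vary like the others. No pathway gene outside the members was called in any of the 9 alternatives. Of 250 alternative values of 28 single genes, 6 (Stau2, Col1a2, Csf1r) lost their call and 3 (Rxra) gained one. The sign turned in 9, all of genes not called, when 1 sample was left out. Over those fits the log2 fold change ran from -0.14 to 0.03 for Rdh11, -0.07 to 0.39 for Ccr9, -0.24 to 0.04 for Ncor1, -0.24 to 0.17 for Nr1h2, -0.21 to 0.31 for Terf1, -0.05 to 0.35 for Gm37509, -0.11 to 0.40 for Rpl7 and -0.04 to 0.27 for Nrip1. Without the filter the median log2 fold change of all genes was 0.12, against 0.02. Causes were not tested. C57BL/6J depth limits what can be seen of Aldh1a2, Cyp26b1, Crabp2 and Rarb.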
